A study of Mus musculus with 18 samples.

Results

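The genes described here are 32 genes of meiotic recombination and the synaptonemal complex, picked by symbol from the 20979 genes of a mouse testis RNA-seq table. All 32 were found in the table, and 31 were expressed highly enough to be tested. The series concerns fecal microbiota transfer (FMT) in mice whose testes were harmed by a fat-rich diet and STZ, the usual short name of streptozotocin, which kills insulin-secreting beta cells. Whole testes came from ICR mice, an outbred stock, all 10 weeks old, and the 18 libraries fell into 6 groups of 3. Mice of the control group had no listed treatment, and those of the AOS group received AOS at 10 mg/kg, an abbreviation that the labels do not spell out. The HFD_STZ group had the high fat diet with STZ, and the HFD_STZ_AOS group had the same with AOS at 10 mg/kg. In the remaining groups the high fat diet with STZ was combined with FMT, from donors given AOS at 10 mg/kg (HFD_STZ_AOS_FMT) or from control donors (HFD_STZ_control_FMT). No group without the diet and STZ received FMT, and no group that received the diet lacked STZ. The labels do not say whether the 3 samples of a group were separate animals, so p-values reflect the spread among these libraries only, and that spread may be technical.

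In meiotic prophase the homologous chromosomes pair, are cut by programmed DNA breaks and exchange strands. Each chromosome is folded along a protein axis of cohesins, HORMA-domain proteins and SYCP2 and SYCP3, and the axes of homologs are then zipped together by SYCP1 filaments and central element proteins into the synaptonemal complex. Breaks made by SPO11 at sites marked by PRDM9 are repaired by strand exchange with the recombinase DMC1, and a subset of the intermediates matures into crossovers. In an adult testis these transcripts come mainly from spermatocytes, which are only some of the cells in the tissue. In such bulk samples fewer spermatocytes and less RNA per spermatocyte cannot be told apart.

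The deposited values, whose unit the header does not name, were taken as RPKM (reads scaled for transcript length and for the library's mapped reads). They summed to 588081 to 646822 per library. Correlations across genes were 0.988 to 0.995 within groups and 0.984 to 0.994 between groups (Pearson's r). In 4 libraries (control replicate 3, HFD_STZ_AOS replicate 3, HFD_STZ_AOS_FMT replicate 3 and HFD_STZ_control_FMT replicate 2) the epididymis gene Crisp1 was at 117 to 165 RPKM, against at most 23.1 RPKM in the others. Where a call was lost or a named difference moved by over 1.5 times without these libraries, the value without them is given below or with the processing alternatives. The labelled tissue matched its germ cell markers: the 8 elongating spermatid markers, led by protamine and transition protein genes, summed to 50961 to 67588 RPKM, and 8 pachytene spermatocyte markers outside the 32 genes summed to 3929 to 4340 RPKM.

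The promoters of the 3 genes that passed a test below, and of the abundant axis gene Sycp3, are shown first. The short motifs TCCCGC, in either orientation, and CACGTG occur in those of Sycp1, Stag3 and Sycp3, but not in that of Sycp2. The windows run from 250 bases before to 20 bases after the RefSeq transcription start (RefSeq annotation, GRCm38.p6), 5′ to 3′ on the gene's own strand. Capitals mark TCCCGC or its reverse complement GCGGGA, the core letters bound by E2F factors, and the palindrome CACGTG, an E-box of the kind bound by MAX and MGA. E2F6, MAX and MGA belong to a Polycomb complex known for keeping germline genes silent in other cells.
Sycp1, chr3:102936081-102936350, minus strand: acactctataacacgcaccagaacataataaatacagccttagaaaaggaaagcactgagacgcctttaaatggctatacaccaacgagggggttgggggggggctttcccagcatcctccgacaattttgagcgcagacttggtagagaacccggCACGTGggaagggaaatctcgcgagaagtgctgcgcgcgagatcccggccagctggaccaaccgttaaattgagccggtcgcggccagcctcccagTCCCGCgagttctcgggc
Sycp2, chr2:178407639-178407908, minus strand: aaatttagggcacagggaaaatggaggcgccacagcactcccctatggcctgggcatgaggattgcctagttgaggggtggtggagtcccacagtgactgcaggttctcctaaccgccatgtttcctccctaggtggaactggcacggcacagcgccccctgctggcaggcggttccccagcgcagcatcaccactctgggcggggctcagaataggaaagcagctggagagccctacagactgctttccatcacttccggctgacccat
Stag3, chr5:138280259-138280528, plus strand: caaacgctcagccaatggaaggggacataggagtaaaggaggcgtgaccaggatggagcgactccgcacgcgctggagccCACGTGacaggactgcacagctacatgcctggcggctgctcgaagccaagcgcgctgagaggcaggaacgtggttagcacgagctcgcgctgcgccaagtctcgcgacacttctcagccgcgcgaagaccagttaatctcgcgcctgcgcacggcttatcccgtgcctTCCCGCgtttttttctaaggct
Sycp3, chr10:88459337-88459606, plus strand: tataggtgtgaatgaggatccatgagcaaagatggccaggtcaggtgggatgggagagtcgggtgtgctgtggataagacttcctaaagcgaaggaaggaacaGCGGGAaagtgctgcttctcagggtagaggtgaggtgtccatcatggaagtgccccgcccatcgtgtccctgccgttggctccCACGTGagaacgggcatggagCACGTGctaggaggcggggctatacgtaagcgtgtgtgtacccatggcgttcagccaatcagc

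RefSeq windows of 300 bases (250 before and 50 after the start) were matched for 28 of the 32 genes, with 33 promoters between them. Spo11, Tex15, Meiob and Tex11 had no entry. TCCCGC in either orientation lay in 20 of the 33 promoters (60.6%), against 6562 of all 32851 mouse promoters of this length. CACGTG lay in 24.2% of the members' promoters and in 7.15% of all. Both motifs stood in a promoter of 7 members, namely Hormad1, Rnf212, Stag3, Syce2, Sycp1, Sycp3 and Tex12. The Sycp2 window printed above holds neither. CNCCTCAG, a motif reported for the meiotic inducer STRA8, lay in 21.2% of the members' promoters and 7.94% of all. The MYB core AACNG lay in 97.0% and 80.3%. The members' promoters were also richer in G and C, with a median of 61.3% against 52.7% for all promoters, which raises the chance of GC-rich letters. These are matches of letters and show no binding.

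The 32 genes differed widely in level, and genes of different roles lay in different ranges. As RPKM is per transcript length, levels of different genes can be set side by side, provided the inferred unit and lengths hold. Central element genes were the most abundant group, with medians over the 18 libraries of 25.6 to 272 RPKM. Crossover genes lay at 3.92 to 7.39 RPKM, and break-formation genes at 0.19 to 22.2 RPKM. In all, 7 members averaged above 100 RPKM, 11 from 10 to 100 RPKM, and 14 at 10 RPKM or less. Among all tested genes 8.79% averaged above 100 RPKM. Summed over the 32 genes, the libraries held 1688 to 1864 RPKM, with group means from 1741 ± 46 in HFD_STZ_control_FMT to 1806 ± 57 in HFD_STZ_AOS_FMT and 1789 ± 41 in control (SD, n = 3 each).

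**Figure D1:**
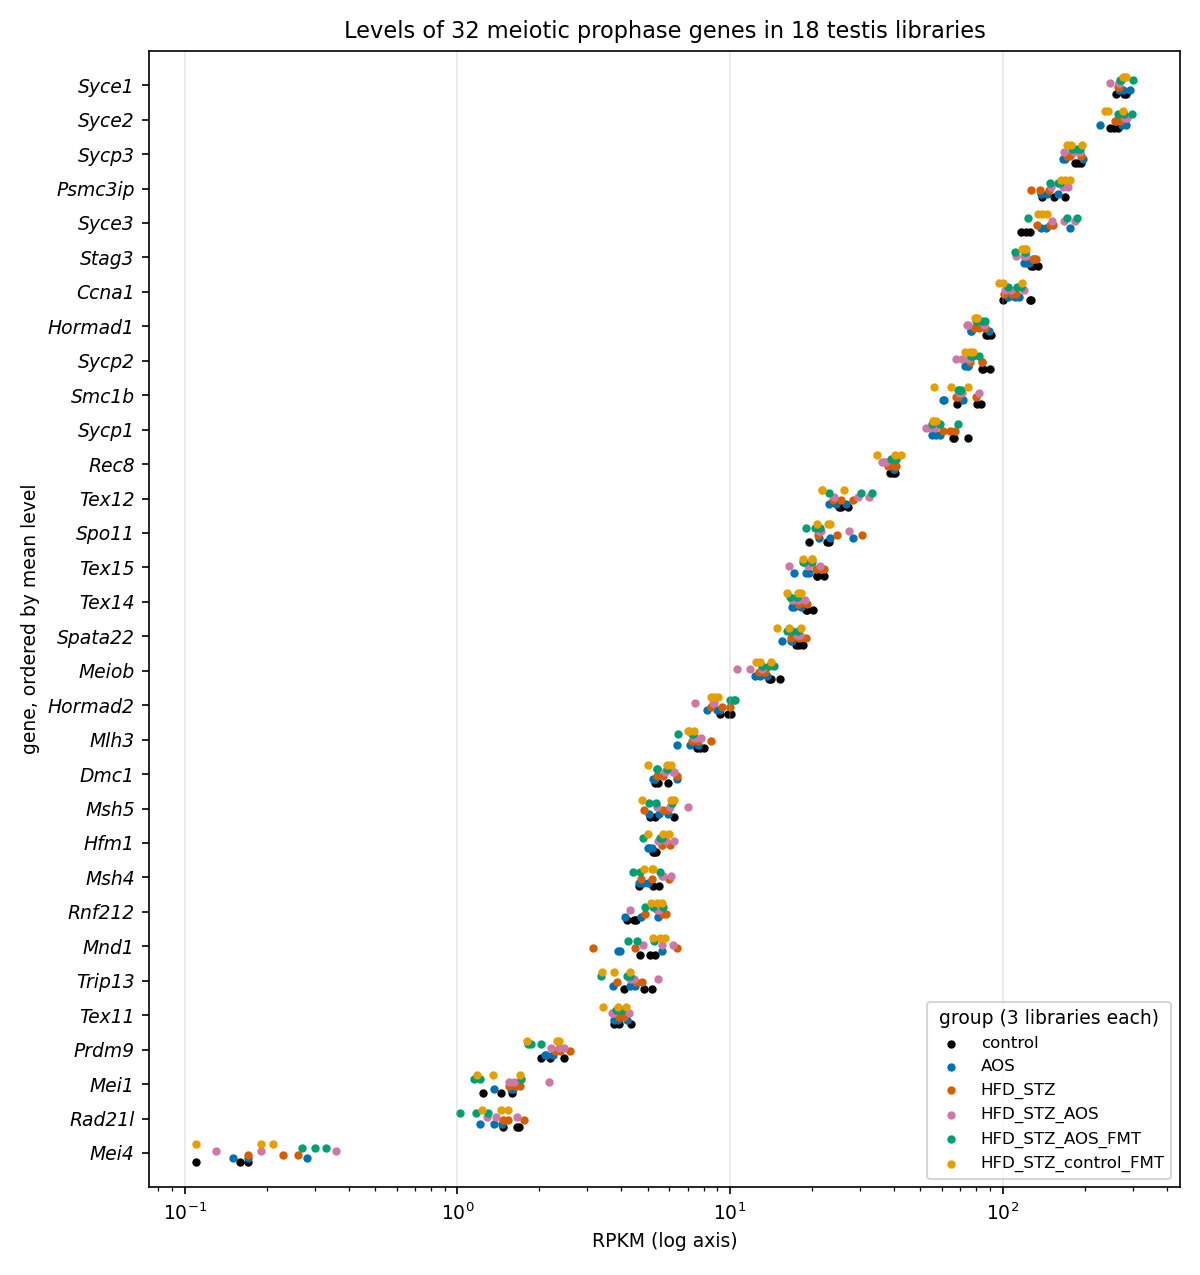
RPKM on a log axis of the 32 genes, ordered by mean level, with 1 point for each of the 18 libraries coloured by group. Syce1 stands highest at 249 to 301 RPKM and Mei4 lowest at 0.11 to 0.36 RPKM, and for nearly every gene the points of the 6 groups lie close together compared with the distances between genes.

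Syce1, a central element protein that links to the transverse filaments, had the highest mean level. Its libraries read 283, 278 and 262 RPKM in control, 267, 294 and 276 in AOS, 267, 267 and 266 in HFD_STZ, 268, 267 and 249 in HFD_STZ_AOS, 301, 273 and 271 in HFD_STZ_AOS_FMT, and 284, 278 and 282 in HFD_STZ_control_FMT. The libraries of both FMT groups lay above the narrow range of HFD_STZ, and control and AOS overlapped each other and the FMT groups. Syce2, its partner in the central element, had a median of 267 RPKM, with group means from 252 ± 20 (HFD_STZ_control_FMT) to 283 ± 2.2 (HFD_STZ_AOS). Syce3, a small protein needed to start central element assembly, had a median of 145 RPKM and the widest spread of group means of these 4, from 122 ± 4.7 in control to 168 ± 16 in HFD_STZ_AOS. Tex12, which forms a complex with SYCE2, was the lowest at a median of 25.6 RPKM. Sycp1, the transverse filament that spans the gap between the axes, had a median of 58.0 RPKM.

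Among the axis genes, Sycp3, which with SYCP2 builds the lateral elements, had a median of 184 RPKM and group means of 178 to 190 RPKM. Hormad1 and Hormad2, which mark unsynapsed axes, had medians of 81.1 and 9.09 RPKM, and Sycp2 had 76.3 RPKM. Trip13, the ATPase that strips HORMA-domain proteins from synapsed axes, was lowest at 4.30 RPKM. The meiosis-specific cohesin subunits ranged from Stag3 at 122 RPKM through Smc1b at 69.2 and the kleisin Rec8 at 39.9 to the kleisin Rad21l at 1.45 RPKM. Stag3 varied least within groups relative to its level, with a coefficient of variation of 2.87%.

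Break-formation genes were low apart from Spo11, the catalytic subunit, at a median of 22.2 RPKM. Prdm9, the methyltransferase that marks the sites of breaks, stood at 2.23 RPKM and Mei1 at 1.56 RPKM. Mei4, an accessory protein of break formation, had the lowest level and was not tested. It read 0.16, 0.17 and 0.11 RPKM in control, 0.28, 0.15 and 0.17 in AOS, 0.23, 0.17 and 0.26 in HFD_STZ, 0.36, 0.13 and 0.19 in HFD_STZ_AOS, 0.33, 0.27 and 0.30 in HFD_STZ_AOS_FMT, and 0.21, 0.19 and 0.11 in HFD_STZ_control_FMT. The steps between low values imply about 6 reads for Mei4 in a library, and no difference between groups was tested. The HFD_STZ_AOS_FMT libraries lay above those of control, HFD_STZ and HFD_STZ_control_FMT and overlapped those of AOS and HFD_STZ_AOS. Against HFD_STZ the margin was only that between 0.27 and 0.26 RPKM, too small to read as a difference at this depth. Among tested genes, a set that leaves out Mei4 and others as low, 7.82% lay wholly higher in HFD_STZ_AOS_FMT than in HFD_STZ, and 5.15% than in HFD_STZ_control_FMT. The share against control was not counted.

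Of the strand exchange genes, Psmc3ip (HOP2), which with MND1 helps DMC1 to invade the homolog, was far more abundant than its partner, at a median of 157 RPKM against 5.14 RPKM for Mnd1. Dmc1 itself had 5.73 RPKM. Tex15, needed to load the recombinases, had 20 RPKM, and Spata22 and Meiob, which bind single-stranded DNA as a complex, had 17.5 and 13.2 RPKM. The crossover genes lay close together: Mlh3, part of the resolving nuclease, at 7.39 RPKM, Msh5 and Msh4, which clamp onto the intermediates, at 5.59 and 5.18, the helicase Hfm1 at 5.50, Rnf212, which stabilises crossover sites, at 5.17, and the X-linked Tex11 at 3.92 RPKM. Ccna1, the cyclin of late prophase, had a median of 110 RPKM, and Tex14, a protein of the bridges between germ cells, 17.8 RPKM.

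Replicate spread was small, with a median SD within groups of 0.0905 on the log2(RPKM + 1) scale for the 31 tested members and 0.104 for all tested genes. Differences below are given on that scale, as the first group minus the second, with the standard error and with limma p-values after Benjamini-Hochberg adjustment across all 13874 tested genes. A gene was called at an adjusted p under 0.05.

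**Figure D2:**
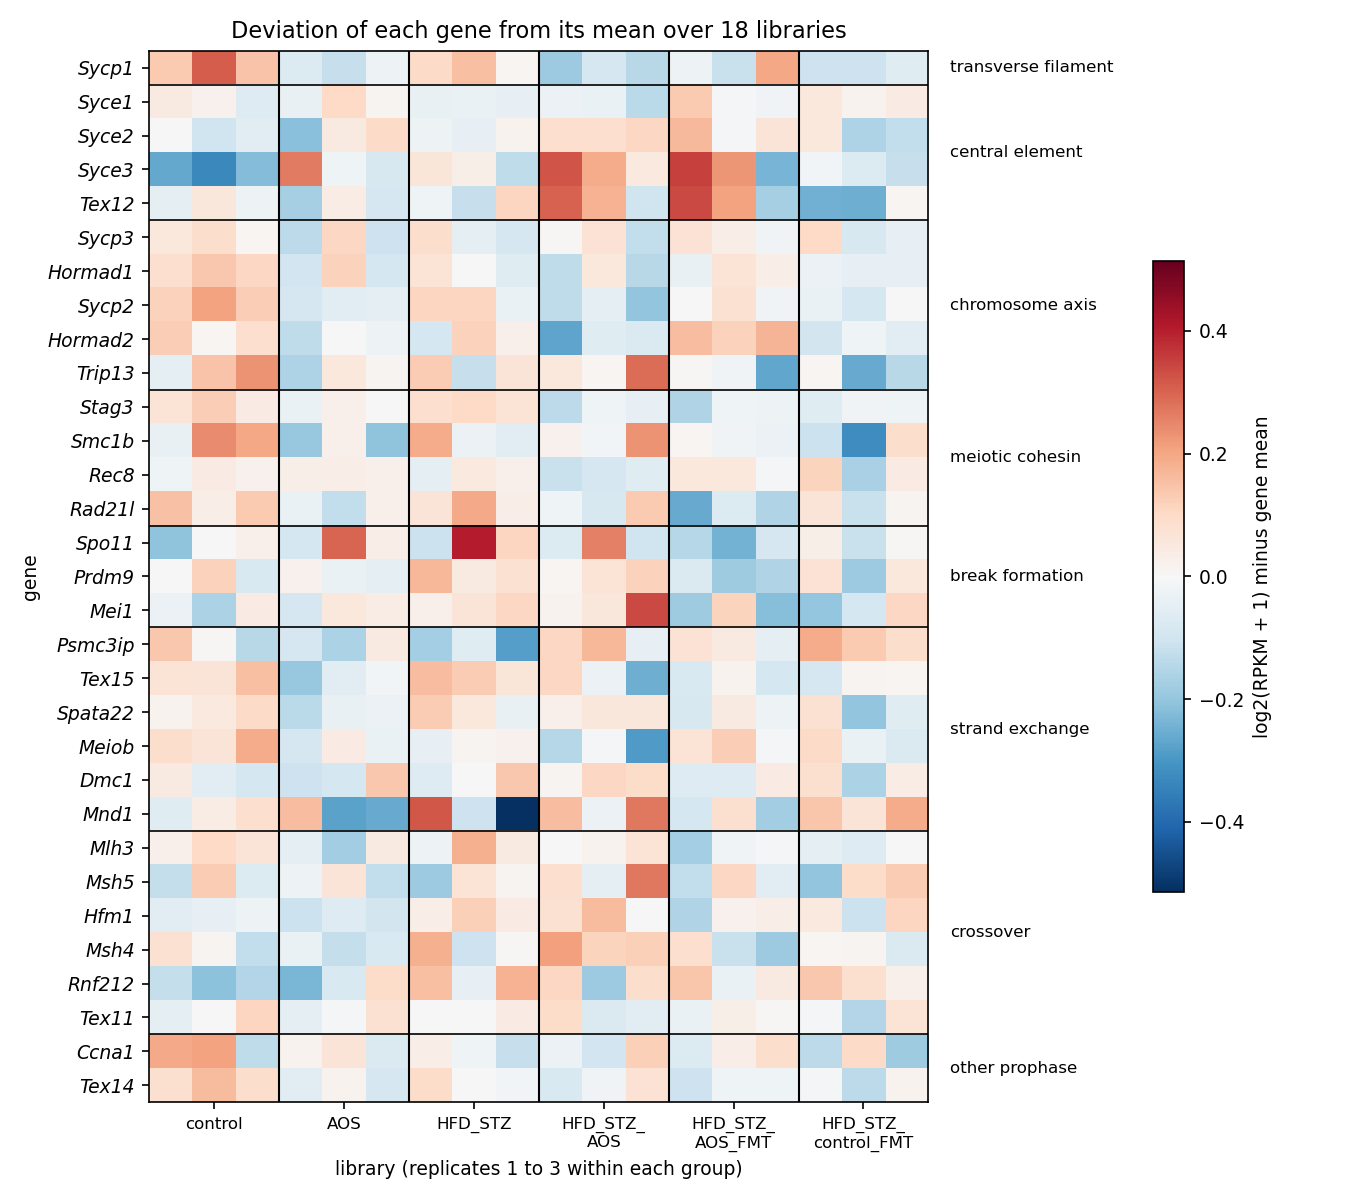
Deviation of the 31 tested genes (rows, grouped by role) from their own mean over 18 libraries, in log2(RPKM + 1), with the libraries as columns in 6 groups of 3. Sycp1, Sycp2 and Stag3 are red in control, mostly red in HFD_STZ and mostly blue in both groups given AOS, Syce3 is blue in control, and few of the remaining rows keep 1 colour within groups.

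Over the groups with and without the diet and STZ together, AOS went with lower Sycp2, Sycp1 and Stag3. None was called in AOS against control or in HFD_STZ_AOS against HFD_STZ, nor with each library's trend on transcript length removed, as given below. The 6 libraries of AOS and HFD_STZ_AOS were set against the 6 of control and HFD_STZ, a main effect of AOS. Sycp2 fell by 13.3% on the RPKM scale, Sycp1 by 16.1% and Stag3 by 7.89%. These 3 of 31 tested members (9.68%) were called, all of them lower, where 2.34% of all tested genes were called in either direction (background), 1.05% lower and 1.30% higher. Before adjustment p was under 0.05 for 8 members that were lower (12.1% of all genes) and 1 that was higher (8.59%), 9 of 31 where all genes gave 20.7%. Leaving out 1 library removed the calls of Sycp2 and Sycp1 when it was AOS replicate 1 or 3, HFD_STZ replicate 1 or 2, HFD_STZ_AOS replicate 1 or control replicate 2, and that of Stag3 in 15 of the 18 omissions. Limma's adjusted p then reached 0.073 for Sycp2, 0.0808 for Sycp1 and 0.118 for Stag3.

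Sycp2 lies at chr2:178345293-178407685 on the minus strand (ENSMUSG00000060445.11, GRCm38/mm10, GENCODE vM21) and its longest transcript has 5717 bases. It read 84.4, 89.9 and 85.0 RPKM in control and 83.9, 84.0 and 75.9 in HFD_STZ, against 73.1, 74.7 and 74.9 in AOS and 70.9, 75.3 and 67.4 in HFD_STZ_AOS. The 6 libraries with AOS lay below the 6 without it. The means were 72.7 ± 3.1 and 83.9 ± 4.5 RPKM (SD, n = 6 each), a log2 difference of -0.20 ± 0.04 (limma, adjusted p = 0.0235).

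Sycp1 lies at chr3:102818499-102936100 on the minus strand (ENSMUSG00000027855.13) with a longest transcript of 3437 bases. Its values were 65.7, 74.5 and 66.3 RPKM in control and 64.3, 66.8 and 60.3 in HFD_STZ, against 57.04, 55 and 58.83 in AOS and 52.4, 56.4 and 54.2 in HFD_STZ_AOS. Here too the ranges with and without AOS did not overlap. Means of 55.6 ± 2.3 and 66.3 ± 4.7 RPKM (SD, n = 6 each) differed by -0.25 ± 0.05 on the log2 scale (limma, adjusted p = 0.0275).

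Stag3 lies at chr5:138280240-138312393 on the plus strand (ENSMUSG00000036928.14) with a longest transcript of 4211 bases. The window printed for it above, placed by the RefSeq start, lies inside these GENCODE bounds. Stag3 stood at 129.6, 134.8 and 127.1 RPKM in control and 130.9, 132.6 and 129.6 in HFD_STZ, against 120.4, 125.4 and 123.2 in AOS and 112.3, 121.5 and 119.8 in HFD_STZ_AOS. The difference was small but the ranges did not overlap. Means were 120 ± 4.5 and 131 ± 2.7 RPKM (SD, n = 6 each), a log2 difference of -0.12 ± 0.03 (limma, adjusted p = 0.0474). Ranges that do not overlap in this contrast, lower with AOS, were found for these 3 members and for 2.1% of all tested genes, and ranges that were higher with AOS for no member and 1.16%.

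The same genes in the groups that received FMT were read from the deposited values without a further test. Stag3 stood at 110.8, 121.2 and 121.2 RPKM in HFD_STZ_AOS_FMT and 118.1, 121.8 and 121.4 in HFD_STZ_control_FMT, so every library of control and HFD_STZ exceeded every library of the other 4 groups. It was the only tested member with that pattern, which 0.577% of tested genes showed, and it was singled out after its values were seen. No member showed the opposite pattern, found for 0.317%. Sycp2 stood at 77.7, 82.1 and 76.7 RPKM in HFD_STZ_AOS_FMT and 75.8, 72.9 and 77.8 in HFD_STZ_control_FMT. Sycp1 stood at 58.8, 55.2 and 68.9 and at 55.5, 55.5 and 57.2 RPKM, with 1 HFD_STZ_AOS_FMT library within the control range.

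**Figure D3:**
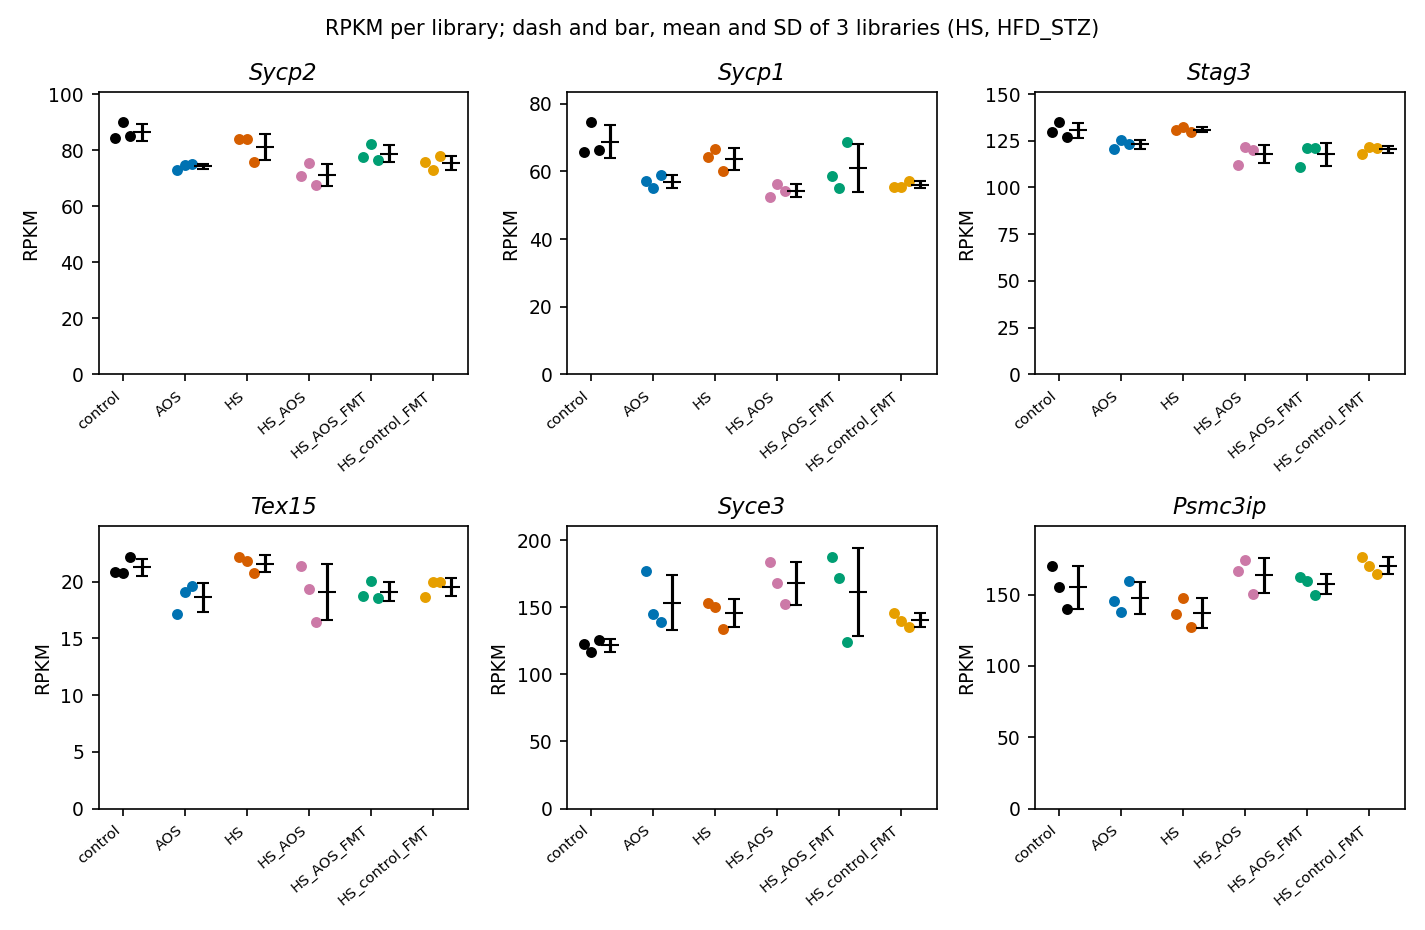
RPKM of 6 members in each library (points) with the mean and SD of each group of 3 (dash and bar), HS standing for HFD_STZ and each axis starting at 0. Sycp2, Sycp1 and Stag3 are lower in both groups given AOS than in control and HFD_STZ, Syce3 is lowest in control and Psmc3ip is lowest in HFD_STZ.

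Other members did not pass. Tex15 had means of 18.8 ± 1.8 RPKM with AOS and 21.4 ± 0.70 without (SD, n = 6 each), a log2 difference of -0.18 ± 0.05 (limma, adjusted p = 0.0725). Hormad2 stood at -0.14 (limma, adjusted p = 0.113) and Hormad1 at -0.10 (limma, adjusted p = 0.184). All 5 axis genes and all 4 cohesin genes had differences below 0, and 21 of the 31 members did, next to 57.0% of all genes. Some of these were close to 0, such as Trip13 at -0.02 and Rec8 at -0.04. Above 0 were 3 of 4 central element, 2 of 3 tested break-formation and 3 of 6 strand exchange genes. Of 6 crossover genes 4 were below 0, as were Sycp1, Ccna1 and Tex14. Syce3 went the other way. It read 122.3, 116.5 and 125.8 RPKM in control and 153.3, 149.9 and 134.1 in HFD_STZ, against 176.8, 144.8 and 138.6 in AOS and 183.9, 167.7 and 152.0 in HFD_STZ_AOS. The ranges overlapped, and the log2 difference of 0.26 ± 0.09 did not pass (limma, adjusted p = 0.101). Over the 31 members the median difference was -0.03, next to -0.02 for all tested genes, and every member's 95% interval lay within 0.5 of 0, as for 95.0% of genes.

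The dependence of values on transcript length differed between groups across the whole table. The slope of a library's values on transcript length, in log2 units per doubling of length over all tested genes, was 0.023, 0.050 and 0.027 in control and 0.035, 0.043 and 0.020 in HFD_STZ. It was -0.003, -0.009 and 0.007 in AOS, -0.030, -0.010 and -0.013 in HFD_STZ_AOS, -0.070, -0.001 and -0.008 in HFD_STZ_AOS_FMT and -0.036, -0.026 and 0.001 in HFD_STZ_control_FMT. Long transcripts thus read relatively higher in every control and HFD_STZ library than in any library of the other 4 groups, the same split of libraries as for Stag3. The other 4 groups include HFD_STZ_control_FMT, which received no AOS and had control donors. What lies behind this split was not tested. Of the 13 members with a transcript over 3000 bases, 11 had a main effect of AOS below 0, next to 72.9% of all genes of that length, while of the 8 under 1500 bases 4 were below 0, next to 27.5%. Sycp2, Sycp1, Stag3 and Tex15 are among the long members, and Syce3, at 480 bases, is the shortest.

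With each library's trend on length removed, no member and no gene of the table was called for the main effect of AOS. Sycp2 then stood at -0.14 (limma, adjusted p = 0.102), Sycp1 at -0.21 (limma, adjusted p = 0.0787), Stag3 at -0.08 (limma, adjusted p = 0.136) and Syce3 at 0.11 (limma, adjusted p = 0.52). Without the 4 libraries high in Crisp1, Sycp1 was still called at -0.26 (limma, adjusted p = 0.0422), whereas Sycp2 at -0.19 and Stag3 at -0.13 were not (limma, adjusted p = 0.0522 and 0.0744).

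**Figure D4:**
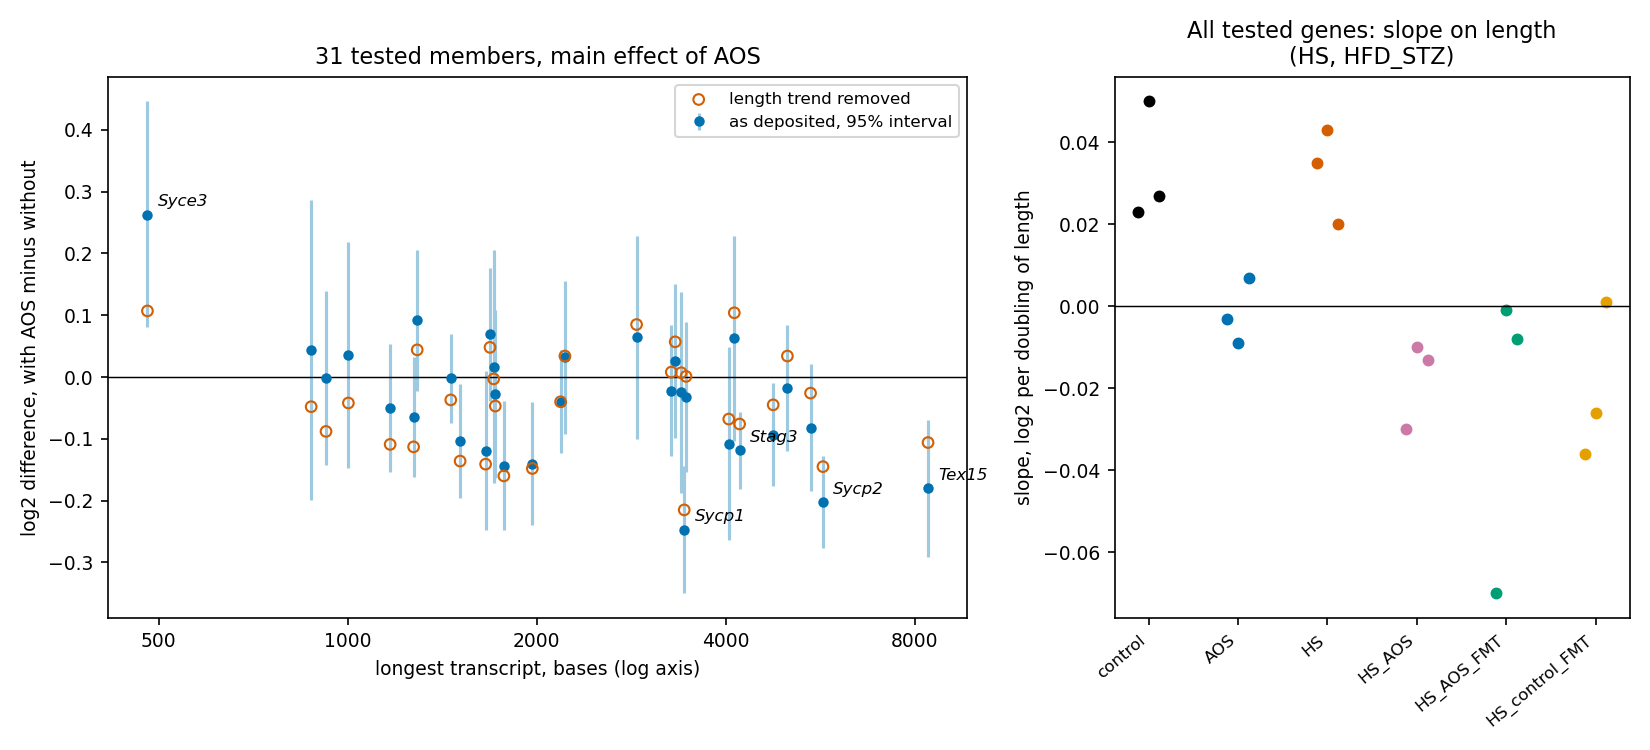
Left, log2 difference with AOS minus without for the 31 tested members against the length of the longest transcript (log axis), as deposited with 95% intervals and after each library's trend on length was removed (open circles). Right, the slope of all tested genes' log2 values on length in each library, which is 0.020 to 0.050 in control and HFD_STZ and -0.070 to 0.007 in the other 4 groups (HS, HFD_STZ).

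Marker levels of other cell types were compared in the same contrast. The summed level of the 8 elongating spermatid markers was 50961 to 57203 RPKM in control and 52369 to 58121 in HFD_STZ, against 62152 to 63844 in AOS and 58414 to 66613 in HFD_STZ_AOS, and 7 of the 8 were above 0 in the main effect, 2 of them called. All 8 Leydig cell markers were below 0 with none called, and their sums were 3523 to 4518 RPKM without AOS and 2576 to 4176 RPKM with it. All 3 erythroid markers were below 0 with none called. Before adjustment limma's p was under 0.05, lower, for 4 Leydig, 2 erythroid and 1 elongating spermatid marker, next to 12.1% of all genes. It was under 0.05, higher, for 6 elongating spermatid markers, next to 8.59% of all genes. Of the 8 pachytene markers outside the members 6 were below 0 and none was called, and their sums were 3929 to 4152 RPKM without AOS and 4132 to 4271 RPKM with it. Of 6 tested spermatogonial markers 5 were above 0 and none was called. No marker was called for round spermatids (5 of 8 above 0), Sertoli cells (5 of 8 above 0), peritubular cells and matrix (5 of 6 below 0), macrophages and leukocytes (5 of 5 below 0), endothelium (4 of 4 below 0), epididymis (4 of 4 above 0) or fat (4 of 4 above 0). The part of these cell mixtures in the result for Sycp2, Sycp1 and Stag3 was not tested.

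Taken within each background, AOS gave no called gene. For AOS against control 0.0% of tested genes were called (0 by limma, 1923 at an unadjusted p under 0.05), and the 3 members with the smallest p were Sycp2 at -0.22 ± 0.05 (limma, adjusted p = 0.161), Sycp1 at -0.27 ± 0.07 (limma, adjusted p = 0.171) and Tex14 at -0.15 ± 0.06 (limma, adjusted p = 0.257). Tex14 read 19.04, 20.2 and 19.2 RPKM in control against 17.2, 18.2 and 16.8 in AOS, and 19.2, 17.9 and 17.8 in HFD_STZ against 16.9, 17.7 and 18.9 in HFD_STZ_AOS. Its ranges were apart in the first background and overlapped in the second. In AOS against control 23 of 31 members were below 0, next to 59.8% of all genes, and 10 members (32.3%) had libraries that lay wholly below control, next to 14.8% of all genes. Syce3 alone lay wholly above it, next to 7.76%. Of the 13 members with transcripts over 3000 bases 12 were below 0, next to 72.7% of genes of that length. With the length trend removed 9 of these 13 were. An unadjusted p under 0.05 was found for 7 members, next to 13.9% of genes, and 30 of 31 intervals lay within 0.5 of 0, next to 88.5%.

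For HFD_STZ_AOS against HFD_STZ 0.0% of tested genes were called (0 by limma, 1734 at an unadjusted p under 0.05, and 2 called without the libraries high in Crisp1). The members with the smallest p were Sycp2 at -0.19 ± 0.05 and Stag3 at -0.15 ± 0.04 (limma, adjusted p = 0.199 for both), followed by Psmc3ip at 0.25 ± 0.08 (limma, adjusted p = 0.216). An unadjusted p under 0.05 was found for 6 members (12.5% of genes), 18 members were below 0 (52.3% of genes), and 30 of 31 intervals lay within 0.5 of 0 (88.9% of genes). Sycp1, Sycp2, Rec8 and Stag3 lay wholly below HFD_STZ (9.8% of genes), and Syce2 and Psmc3ip wholly above it (7.37% of genes). The interaction, which asks whether AOS acts differently with and without the diet and STZ, gave Sycp2 0.03 ± 0.07 and Sycp1 0.04 ± 0.10, with 95% intervals of -0.12 to 0.18 and -0.17 to 0.25. Across the table the interaction called 0.0% of genes (0 by limma, 640 or 4.61% at an unadjusted p under 0.05, among them 1 member). For 10 members the term was below 0 (43.6% of genes), and for 25 of 31 its interval lay within 0.5 of 0 (76.1% of genes). Its smallest p among members was that of Psmc3ip at 0.32 ± 0.11 (limma, adjusted p = 0.999), followed by Smc1b at 0.30 ± 0.15 and Mnd1 at 0.38 ± 0.23 (limma, adjusted p = 0.999 for both). Without the libraries high in Crisp1 the Smc1b term was 0.19. The Mnd1 term was 0.17 without HFD_STZ replicate 3 and 0.59 without HFD_STZ replicate 1.

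The values behind that interaction were as follows. Psmc3ip read 170.1, 155.1 and 140.1 RPKM in control, 145.4, 138.0 and 159.5 in AOS, 136.7, 147.9 and 127.0 in HFD_STZ, and 166.3, 174.2 and 150.3 in HFD_STZ_AOS. It was higher with AOS in every library on the diet and STZ, and overlapped without it. Smc1b read 68.1, 83.1 and 80.6 RPKM in control, 61.1, 71.4 and 60.5 in AOS, 80.0, 68.6 and 67.3 in HFD_STZ, and 71.0, 69.3 and 82.3 in HFD_STZ_AOS, with overlap on both backgrounds. Mnd1 varied most within groups, from 3.15 to 6.40 RPKM inside HFD_STZ alone.

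High fat diet with STZ against control called no gene (0 by limma, 0.0% of 13874 tested genes, with 1151 at an unadjusted p under 0.05). The members with the smallest p were Rnf212 at 0.26 ± 0.09 (limma, adjusted p = 0.456), Psmc3ip at -0.17 ± 0.08 (limma, adjusted p = 0.568) and Syce3 at 0.26 ± 0.12 (limma, adjusted p = 0.602). Rnf212 read 4.53, 4.20 and 4.43 RPKM in control and 5.70, 4.86 and 5.82 in HFD_STZ, which did not overlap. In AOS it read 4.12, 4.71 and 5.43 RPKM and in HFD_STZ_AOS 5.48, 4.30 and 5.42, which did. Hormad1, Sycp2 and Meiob lay wholly below control in HFD_STZ (9.68% of members, next to 4.53% of genes) and Syce3, Hfm1 and Rnf212 wholly above it (9.68% of members, next to 11.7% of genes). By direction 19 of 31 members were below 0, next to 40.5% of genes, among them all 5 axis genes. Before adjustment 3 members had p under 0.05, next to 8.3%. For 30 of the 31 members the 95% interval of the difference lay within 0.5 of 0 on the log2 scale, next to 88.5% of genes.

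With the AOS-treated groups added (HFD_STZ and HFD_STZ_AOS against control and AOS, n = 6 each), the main effect of the diet and STZ called 2.85% of tested genes (396) and no member. Hfm1, the helicase of the crossover pathway, came nearest. It read 5.22, 5.27 and 5.34 RPKM in control and 4.99, 5.17 and 5.05 in AOS, against 5.62, 6.03 and 5.65 in HFD_STZ and 5.81, 6.23 and 5.46 in HFD_STZ_AOS. Every HFD_STZ and HFD_STZ_AOS library exceeded every control and AOS library, as for 1.61% of tested genes in that direction, and the means of 5.80 ± 0.29 and 5.17 ± 0.13 RPKM differed by 0.14 ± 0.05 on the log2 scale (limma, adjusted p = 0.129). The FMT groups, which also had the diet and STZ, read 4.81, 5.55 and 5.61 RPKM with AOS donors and 5.68, 4.99 and 5.98 with control donors, and overlapped control and AOS. Rnf212 followed at 0.17 ± 0.07 (limma, adjusted p = 0.182) and Meiob at -0.12 ± 0.05 (limma, adjusted p = 0.197). Meiob read 14.1, 13.9 and 15.2 RPKM in control, 12.4, 13.6 and 12.9 in AOS, 12.8, 13.4 and 13.4 in HFD_STZ, and 11.8, 13.1 and 10.6 in HFD_STZ_AOS, with overlap, and its difference was -0.06 without the libraries high in Crisp1 (limma, adjusted p = 0.604). By role, 5 of 6 crossover genes were above 0 and 4 of 5 axis genes below 0, with a median over all 31 members of 0.03 and the same 0.03 for all tested genes. In all 13 members were below 0 (35.3% of genes), 6 had an unadjusted p under 0.05 (18.8%), all 31 intervals lay within 0.5 of 0 (93.4%), and no member lay wholly below control and AOS (0.238%). Without the libraries high in Crisp1 36 genes were called in place of 396.

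FMT after the diet and STZ called no member. Both FMT groups were compared with the same 3 HFD_STZ libraries, so these comparisons share them. For HFD_STZ_AOS_FMT, 0.0144% of tested genes were called (2, and 0 without the libraries high in Crisp1), and the smallest p among members were those of Stag3 at -0.15 ± 0.04 (limma, adjusted p = 0.216), Rad21l at -0.26 ± 0.09 (limma, adjusted p = 0.225) and Prdm9 at -0.23 ± 0.08 (limma, adjusted p = 0.237). Rad21l read 1.53, 1.76 and 1.47 RPKM in HFD_STZ and 1.02, 1.30 and 1.17 in HFD_STZ_AOS_FMT. Prdm9 read 2.59, 2.29 and 2.37 RPKM and 2.03, 1.81 and 1.87, respectively. Neither overlapped, but both stand at 1 to 3 RPKM, where adding 1 before the log shrinks differences. With 0.1 added instead, the differences were -0.42 for Rad21l and -0.33 for Prdm9 (limma, adjusted p = 0.227 and 0.237). All 3 tested break-formation genes were below 0 and all 4 central element genes above 0, none of them called. In all 18 members were below 0 (56.3% of genes), 6 had an unadjusted p under 0.05 (14.5%), and 30 of 31 intervals lay within 0.5 of 0 (88.9%). Tex14, Tex15, Stag3, Rad21l, Hfm1 and Prdm9 lay wholly below HFD_STZ (11.6% of genes), and Syce1 and Psmc3ip wholly above it (7.82%). The 13 members with transcripts over 3000 bases were all below 0, next to 72.9% of genes of that length.

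For HFD_STZ_control_FMT, 0.00721% of tested genes were called (1). Psmc3ip read 176.7, 169.9 and 164.5 RPKM, above the 136.7, 147.9 and 127.0 of HFD_STZ, a log2 difference of 0.31 ± 0.08 that did not pass (limma, adjusted p = 0.125). Its HFD_STZ_AOS_FMT libraries, at 162.6, 159.7 and 149.5 RPKM, also lay above HFD_STZ, with a difference of 0.20 ± 0.08 (limma, adjusted p = 0.273). Stag3 followed at -0.12 ± 0.04 (limma, adjusted p = 0.192) and Sycp1 at -0.18 ± 0.07 (limma, adjusted p = 0.219). With the length trend removed Stag3 stood at -0.06 (limma, adjusted p = 0.438). In this comparison 26 of 31 members were below 0, next to 58.9% of all genes, and the 13 members with transcripts over 3000 bases were all below 0, next to 73.8% of genes of that length. An unadjusted p under 0.05 was found for 3 members (16.2% of genes), and 30 of 31 intervals lay within 0.5 of 0 (87.9%). Sycp1, Tex15 and Stag3 lay wholly below HFD_STZ (16.0% of genes), and Syce1 and Psmc3ip wholly above it (8.0%).

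Donor treatment was compared directly between the FMT groups. AOS donors against control donors called 0.0216% of tested genes (3, and 0 without the libraries high in Crisp1) and no member. Hormad2 read 10.35, 10.04 and 10.46 RPKM with AOS donors against 8.53, 9.01 and 8.76 with control donors, a difference of 0.21 ± 0.07 (limma, adjusted p = 0.999). Its libraries did not overlap, as for 5.15% of tested genes in that direction, and Psmc3ip lay wholly lower with AOS donors, as for 3.27%. Tex12 read 33.2, 30.2 and 23.0 RPKM against 21.8, 21.7 and 26.3 (0.29 ± 0.12; limma, adjusted p = 0.999). That difference was 0.18 without HFD_STZ_AOS_FMT replicate 1 and 0.44 without replicate 3 of that group. Syce2 read 298.2, 264.7 and 278.1 RPKM against 275.6, 237.7 and 243.2 (0.15 ± 0.07; limma, adjusted p = 0.999). Tex12 and Syce2 overlapped between the groups. These were the 3 members with an unadjusted p under 0.05 (4.58% of genes). By direction 16 of 31 were below 0 (46.1% of genes), and 29 of 31 intervals lay within 0.5 of 0 (90.5%).

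An F test among all 6 groups called 0.0432% of tested genes (6) and no member. The number of genes called ran from 2 without HFD_STZ_AOS_FMT replicate 2 or 3 to 157 without HFD_STZ_AOS replicate 2, and was 0 without the libraries high in Crisp1. The smallest p among members were those of Sycp2 (limma, adjusted p = 0.071), Sycp1 (limma, adjusted p = 0.0802) and Stag3 (limma, adjusted p = 0.1). Before adjustment 7 members had p under 0.05, next to 21.1% of genes.

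Further genes of meiotic prophase, listed beside the 32, were counted in the same fits. Like the members, they were listed with earlier results of these data known. Of 50 listed, 48 were in the table and tested. In the main effect of AOS 30 were below 0 (57.0% of all genes were), and 1 was called, 1 of 48 where 2.34% of all genes were called. It was Smc3, the cohesin subunit shared by mitosis and meiosis, with means of 24.3 ± 0.44 RPKM in control and 21.4 ± 1.1 in AOS, and 24.4 ± 1.4 in HFD_STZ and 22.1 ± 0.57 in HFD_STZ_AOS (SD, n = 3 each). Its log2 difference was -0.16 ± 0.04 (limma, adjusted p = 0.0409), and -0.11 with the length trend removed (limma, adjusted p = 0.167), and it lost its call in 10 of 18 omissions of 1 library, by limma up to an adjusted p of 0.101. Without the libraries high in Crisp1 it stood at -0.14 (limma, adjusted p = 0.105). In AOS against control 38 of the 48 were below 0, next to 59.8% of all genes, and none was called. The smallest p there were those of Smc3 at -0.18 ± 0.05 (limma, adjusted p = 0.186), Rad51ap2 at -0.26 ± 0.09 (limma, adjusted p = 0.244) and the helicase Blm at -0.21 ± 0.09 (limma, adjusted p = 0.31).

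In the main effect of the diet and STZ, 17 of the 48 were below 0, next to 35.3% of all genes, and 2 were called, both higher, where 2.85% of all genes were called. Gm960, which encodes the TOPOVIBL subunit that works with SPO11 in making breaks, averaged 1.70 ± 0.17 RPKM in control and 1.92 ± 0.28 in AOS against 2.59 ± 0.13 in HFD_STZ and 3.20 ± 0.95 in HFD_STZ_AOS (SD, n = 3 each). Its log2 difference was 0.46 ± 0.09 (limma, adjusted p = 0.0204). In the FMT groups it averaged 2.22 ± 0.27 and 1.70 ± 0.27 RPKM with AOS and control donors. Gm4969, which encodes the STRA8 partner MEIOSIN, averaged 5.50 ± 0.13 RPKM in control and 5.46 ± 0.55 in AOS against 6.48 ± 0.091 in HFD_STZ and 6.40 ± 0.27 in HFD_STZ_AOS, a difference of 0.20 ± 0.05 (limma, adjusted p = 0.0473). In the FMT groups it averaged 5.75 ± 0.46 and 5.86 ± 0.52 RPKM with AOS and control donors. Spo11 itself had a difference of 0.07 ± 0.09 (limma, adjusted p = 0.711). Without the 4 libraries high in Crisp1 neither was called, with Gm960 at 0.40 (limma, adjusted p = 0.0784) and Gm4969 at 0.18 (limma, adjusted p = 0.189), and with the length trend removed Gm960 was still called (0.42; limma, adjusted p = 0.0283) and Gm4969 was not (0.16; limma, adjusted p = 0.0769). Leaving out AOS replicate 3, HFD_STZ replicate 1 or control replicate 1 removed the call of Gm960 (limma, adjusted p up to 0.0582), and 14 of 18 omissions removed that of Gm4969 (up to 0.121).

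The members did not rise and fall as 1 block across libraries. Correlations of a member with the mean of the other tested members over the 18 libraries, given as a description, ran from 0.84 for Spata22 and 0.74 for Smc1b down to -0.24 for Syce1 and -0.26 for Syce3 (Pearson's r). Sycp2 stood at 0.46, Stag3 at 0.32 and Sycp1 at 0.21. Among the tested genes outside the list whose pattern was most like the members' mean were Adam24 (0.855), Polk (0.819), Zfp148 (0.819), Wdr41 (0.814), Abhd4 (0.806), Ccnh (0.801), Tex16 (0.798), Ppp1r12b (0.792) and Fyttd1 (0.791). All points come from the same 18 libraries and share their depth and slope on length.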

How the data were processed

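Testis RNA of 18 samples was sequenced, and groups and replicate numbers came from the labels. Frozen testes were extracted with Trizol followed by column purification, and Illumina libraries were made from 1 µg of total RNA, per the labels' protocols. Bowtie 0.12.2 and mm10 were used, per the submitters' processing notes. The counter, annotation and use of strand are not given in the sources used here, so overlapping or antisense genes could not be told apart. The authors deposited 1 table of values per gene, whose unit was read from the values as RPKM, since the header does not name it and does not say whether reads or fragments were counted. RPKM depends on length and on the library total, so a shift in the yield of long transcripts moves all values. The smallest non-zero values of 512 genes listed at 0 in some libraries implied a median of 13200000 reads per library (quartiles 11200000 and 14800000).

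Of 20985 rows, 6 that shared 3 symbols were dropped, and 384 of the 20979 kept were 0 throughout. The 13874 genes that reached 1 RPKM in 3 or more libraries were tested on log2(RPKM + 1) with limma 3.58.1 in R 4.3.3 (trend, 1 coefficient per group, 12 residual and 3.71 prior degrees of freedom, two-sided, Benjamini-Hochberg, threshold 0.05). The pseudocount of 1 understates changes of low genes. There were 9 contrasts and an F test. The members, gene lists, main effects and tests were chosen with earlier results of these data known. Named are all 32 members, called genes and, in each contrast, the 3 members with the smallest p, with the 10 genes outside the list most like them, of which 1 is not reported here. Lengths and gene positions came from GENCODE vM21, with a length for 97.9% of tested genes. The length trend was a lowess curve per library (span 0.3). Alternatives were median ratio scaling, pseudocount 0.1, no filter, only the groups compared, robust empirical Bayes, a block for the replicate number, the length trend removed, each library left out in turn and, added after the data were seen, the omission of 4 libraries above 100 RPKM of Crisp1. The fit was tested on simulated data with changes placed in the main effect of AOS. Only genes above a set mean level were changed, which leaves out the lowest members such as Rad21l. No trend on length was simulated. Of 67 genes with a log2 change of 0.2, 46.3% were called, and of 67 with a change of 0.5, 89.6%. Differences of about 0.2 can thus be missed. Python 3.11.15, pandas 2.3.3, scipy 1.17.1 and matplotlib 3.10.9 were also used.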

Additional observations from a re-analysis of the deposited data

How the results depend on the processing

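The count of members called for the main effect of AOS, 3 as reported, was 0 with the length trend removed, 0 with the length trend removed and a replicate block, and 1 (Sycp1) without the libraries high in Crisp1. Leaving out 1 library at a time gave 0 to 4 members. Stag3 alone missed the threshold with median ratio scaling (limma, adjusted p = 0.0623), no filter (adjusted p = 0.0606) and robust empirical Bayes (adjusted p = 0.0513). Syce3 was also called, higher, with a replicate block and with only the groups compared. The F test called 0 to 1 members over the omissions, and the other contrasts called 0 members under every alternative run. No difference of a named gene that was called, or of the 3 members with the smallest p in a contrast, changed sign under any alternative run. Some other members near 0 did. In the main effect of AOS, Mnd1 was at 0.044 as reported and at -0.048 with the length trend removed. Genes called in the whole table for the main effect of AOS numbered 325 as reported, 168 with median ratio scaling, 142 with no filter, 565 with only the groups compared, 77 without the libraries high in Crisp1, 0 with the length trend removed, 6 with that and a replicate block, and 0 to 784 over the omissions. For the main effect of the diet and STZ they numbered 396 as reported, 257 with median ratio scaling, 205 with no filter, 133 with only the groups compared, 36 without the libraries high in Crisp1, and 111 to 694 over the omissions. The cause of these changes was not tested. Replicate numbers were not taken as pairs, since not every correlation of same-numbered libraries was over 0.1 (45 correlations, -0.25 to 0.41), although 11 of 18 libraries correlated best with a library of their own number, a hint from the data and not from the design. With the replicate number as a block 4 members were called for the main effect of AOS, and 0 in each other comparison. Low depth limits Mei4 and Rad21l most, at about 6 and 31 implied reads a library.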
